A study of Mus musculus with 39 samples.

Results

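The identity of microglia, the resident macrophages of the brain, rests on a small set of transcription factors, and 7 genes that encode such factors are described here. They are Sall1, Sall3, Mef2a, Mef2c, Maf, Spi1 and Runx1, chosen by name as the identifiers that carry these symbols in GENCODE release M21, which makes 7 of the 55487 genes listed. All 7 passed the filter on low counts, which kept 13420 genes for testing. By that annotation Sall1 (ENSMUSG00000031665) lies on chromosome 8, Sall3 (ENSMUSG00000024565) on 18, Mef2a (ENSMUSG00000030557) on 7, Mef2c (ENSMUSG00000005583) on 13, Maf (ENSMUSG00000055435) on 8, Spi1 (ENSMUSG00000002111) on 2, and Runx1 (ENSMUSG00000022952) on 16. Their estimated counts per library ran from 101 for Sall3 to 6701 for Mef2a.

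RNA was sequenced from striatal microglia of male mice, 8 to 10 weeks old, taken 18 hours after lipopolysaccharide (LPS, 4500 endotoxin units per gram, given intraperitoneally) or saline. LPS, from the outer membrane of Gram-negative bacteria, triggers inflammatory responses through Toll-like receptor signalling. Live cells were sorted as CD11b+, CD45-low and P2RY12+. Each group carries a prenatal term, MIA (maternal immune activation, per the series design) or CON, and an arm term, PLX or CON, and the labels define neither PLX nor the agent behind MIA. The LPS groups were MIA_PLX_LPS, CON_PLX_LPS and MIA_CON_LPS with 6 libraries each and CON_CON_LPS with 4. The saline groups were MIA_PLX_SAL with 3 libraries and CON_PLX_SAL, MIA_CON_SAL and CON_CON_SAL with 4 each. The prenatal term joined to the arm term by a colon names an arm, MIA:CON being MIA mice outside the PLX arm. Within each of the 4 arms LPS was compared with saline. MIA was also compared with CON and PLX with no PLX, and it was asked whether MIA or PLX altered the LPS response.

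Sall1 encodes a zinc finger factor that, among macrophages, is largely restricted to microglia, and its loss in mice shifts microglia away from their resting state. Sall3 is its relative. The MADS box factors Mef2a and Mef2c bind enhancers active in microglia, and Mef2c restrains inflammatory responses of mouse microglia. Spi1 encodes PU.1, the ETS factor that macrophages and microglia need for their development. Maf is a basic leucine zipper factor of macrophages, and Runx1 is a runt domain factor of blood and macrophage development that binds DNA with its partner Cbfb. Transforming growth factor beta signalling through Smad factors is known to hold the resting state in place.

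The promoter windows of 4 members (Sall1, Mef2a, Mef2c and Runx1) were taken from RefSeq on GRCm38.p6, each from 250 bases before to 50 after an annotated start. The first Sall1, Mef2c and Mef2a windows are shown because these genes fell after LPS in at least 1 arm, and 2 Runx1 windows because Runx1 rose and is known to be transcribed from a distal and a proximal promoter, which a count per gene does not separate. Capitals mark matches, on either strand, to GAGGAA (the core of a PU.1 site) or TGTGGT (the core of a RUNX site, written ACCACA where it lies on the opposite strand). The windows lie at chr8:89044113-89044412 (minus strand, Sall1), chr13:83503784-83504083 (plus strand, Mef2c), chr7:67372809-67373108 (minus strand, Mef2a), chr16:92826025-92826324 (minus strand, Runx1 distal) and chr16:92697280-92697579 (minus strand, Runx1 proximal).
Sall1 start 1: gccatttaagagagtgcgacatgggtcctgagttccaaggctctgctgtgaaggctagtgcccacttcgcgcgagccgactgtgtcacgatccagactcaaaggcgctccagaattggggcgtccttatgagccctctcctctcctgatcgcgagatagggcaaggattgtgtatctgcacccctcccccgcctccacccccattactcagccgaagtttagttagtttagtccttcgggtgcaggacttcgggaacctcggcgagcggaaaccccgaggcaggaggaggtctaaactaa
Mef2c start 1: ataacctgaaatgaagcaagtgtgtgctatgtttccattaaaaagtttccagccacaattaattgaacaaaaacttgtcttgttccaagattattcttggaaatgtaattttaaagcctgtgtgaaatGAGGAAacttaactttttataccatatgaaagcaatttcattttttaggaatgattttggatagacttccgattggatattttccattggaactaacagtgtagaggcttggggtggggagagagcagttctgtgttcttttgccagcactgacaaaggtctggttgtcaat
Mef2a start 1: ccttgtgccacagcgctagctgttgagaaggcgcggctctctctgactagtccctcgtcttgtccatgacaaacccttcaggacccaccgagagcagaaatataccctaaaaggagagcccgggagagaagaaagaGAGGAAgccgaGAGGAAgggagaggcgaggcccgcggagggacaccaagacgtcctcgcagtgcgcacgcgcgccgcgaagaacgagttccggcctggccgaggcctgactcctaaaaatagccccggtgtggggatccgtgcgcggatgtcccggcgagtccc
Runx1 start 1: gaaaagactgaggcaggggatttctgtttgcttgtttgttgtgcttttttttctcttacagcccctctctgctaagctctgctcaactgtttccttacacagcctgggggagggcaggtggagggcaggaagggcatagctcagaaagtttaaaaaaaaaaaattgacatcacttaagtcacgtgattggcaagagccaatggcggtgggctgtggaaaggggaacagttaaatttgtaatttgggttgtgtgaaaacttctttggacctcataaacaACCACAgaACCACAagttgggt
Runx1 start 2: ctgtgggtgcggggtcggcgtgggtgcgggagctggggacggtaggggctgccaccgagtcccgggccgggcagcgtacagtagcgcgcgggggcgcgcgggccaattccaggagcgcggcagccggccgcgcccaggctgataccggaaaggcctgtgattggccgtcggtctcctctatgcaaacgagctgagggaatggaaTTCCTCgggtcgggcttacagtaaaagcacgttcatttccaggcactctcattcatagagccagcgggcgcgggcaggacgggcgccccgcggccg

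The Mef2a window holds GAGGAA at 114 and 103 bases before the start, the Mef2c window at 122 bases before it, and the proximal Runx1 window on the opposite strand at 46 bases before it. The distal Runx1 window holds TGTGGT on the opposite strand at 28 and 36 bases after the start. GAGGAA occurs in 28.3% and TGTGGT in 16.8% of all 32851 windows of this length, so both are common. None of the 3 Sall1 windows in the RefSeq table holds either, and no window of the 4 genes holds the palindromic SMAD sequence GTCTAGAC (0.213%). A match of letters describes these windows and says nothing of binding.

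Totals of the 37 libraries used ran from 1510020 to 5746239 estimated counts, with a median of 3095162. Another 2 libraries, CON_CON_LPS replicate 3 and MIA_PLX_SAL replicate 1, are titled as excluded and were left out. MIA_CON_LPS replicate 6, which is used, differed from that excluded MIA_PLX_SAL library by little more than counting noise (chi-square per degree of freedom of 1.53 over 11605 genes, against at least 2.42 in every other pair of the 741). Levels are given as CPM, estimated counts scaled by TMM to a common library total. The summed level of 10 chemokine genes was 167 CPM in CON_CON_LPS replicate 4 and 241 CPM in MIA_PLX_LPS replicate 2, inside the range of the saline libraries (104 to 468 CPM), while the median of the LPS libraries was 1620 CPM. Calls of members in the LPS comparisons that change without these 3 doubted libraries are given without them as well. Whether replicates came from separate animals is not stated, and the spread that p-values rest on may therefore be technical.

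Sall1, Mef2c and Maf fell after LPS and Runx1 rose, while Mef2a, Spi1 and Sall3 moved less. Averaged over the 4 arms, LPS lowered Sall1 by 3.33-fold, Mef2c by 2.28-fold, Maf by 1.74-fold, Mef2a by 1.31-fold and Sall3 by 1.27-fold, and raised Runx1 by 1.65-fold and Spi1 by 1.35-fold. By edgeR's quasi-likelihood test with Benjamini-Hochberg adjustment over all tested genes, all 7 members passed an adjusted p of 0.05 in this average. Of all tested genes 56.4% passed. The 2 members that rose compare with 30.3% of all genes higher, and the 5 that fell with 26% lower. The members' median log2 change was -0.39 and that of all tested genes 0.03. Sall1, Mef2c and Runx1 were called in the same direction in each of the 4 arms, as were 13% of all tested genes. In these 3 genes no LPS library overlapped any saline library, as in 6.02% of all tested genes. In bulk samples, fewer cells of a type and less RNA per cell cannot be told apart.

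**Figure D1:**
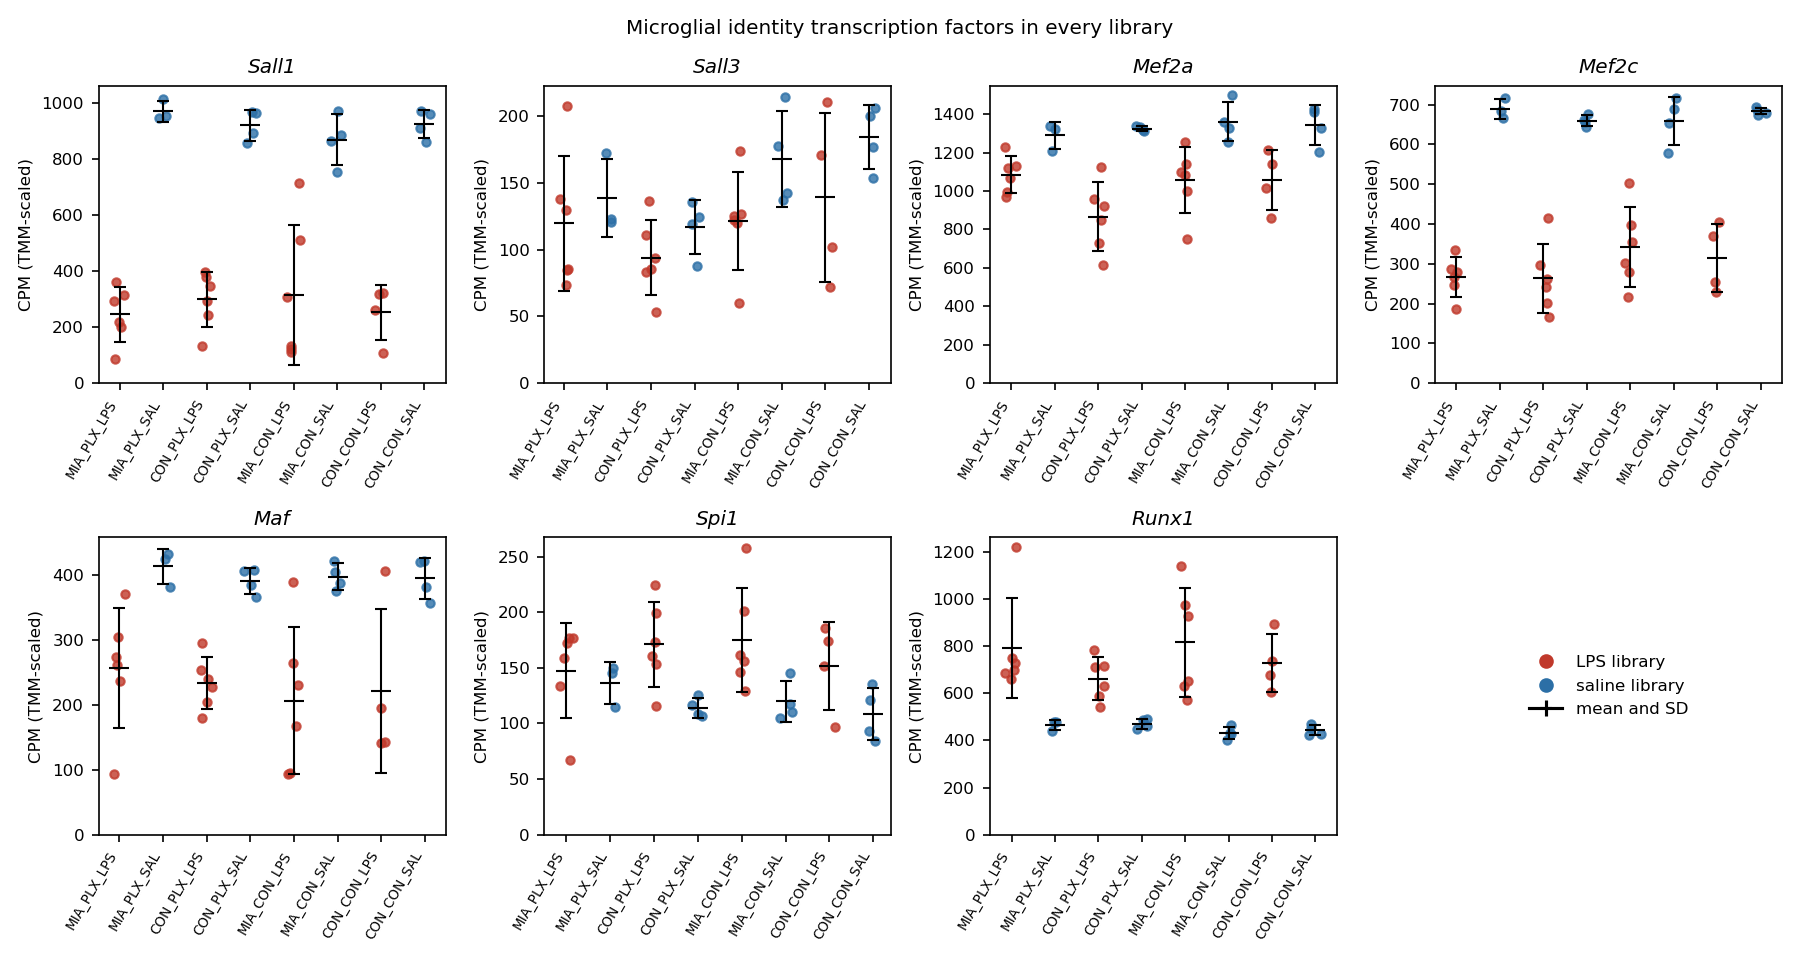
Level of each gene in CPM (scaled by TMM) in every library, by group, with LPS libraries in red, saline libraries in blue, and bars for the mean and SD. All LPS libraries lie below all saline libraries for Sall1 and Mef2c and above them for Runx1, while the groups overlap for Sall3, Mef2a, Maf and Spi1.

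Sall1, the zinc finger factor that marks microglia, had the largest change of the 7. It had 85.9, 257 and 361 CPM (lowest, median and highest of 6 libraries) in MIA_PLX_LPS, against 1013, 947 and 953 CPM in the 3 libraries of MIA_PLX_SAL. Values were 133, 320 and 397 CPM in CON_PLX_LPS, against 965, 857, 967 and 892 CPM in CON_PLX_SAL. Every LPS library of both PLX arms lay far below every saline library. In MIA_CON_LPS Sall1 had 110, 219 and 714 CPM, against 971, 754, 887 and 866 CPM in MIA_CON_SAL. It had 109, 318, 262 and 321 CPM in CON_CON_LPS, against 960, 909, 861 and 971 CPM in CON_CON_SAL. The groups did not overlap in these arms either, although MIA_CON_LPS replicate 6, at 714 CPM, came near the lowest saline library.

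The log2 change of Sall1 was -1.98 ± 0.412 (SE) in MIA:PLX, with an adjusted p of 0.00058 by edgeR. It was -1.62 ± 0.386 in CON:PLX (adjusted p = 0.0014), -1.46 ± 0.386 in MIA:CON (adjusted p = 0.0055) and -1.87 ± 0.442 in CON:CON (adjusted p = 0.0021), all by edgeR. Without MIA_CON_LPS replicate 6 the change in MIA:CON was -1.88. Ordered by mean, Sall1 was highest in MIA_PLX_SAL (971 ± 36.9 CPM, SD), then CON_CON_SAL (925 ± 50.8), CON_PLX_SAL (920 ± 54.9) and MIA_CON_SAL (870 ± 89.4). The LPS groups followed, with MIA_CON_LPS (315 ± 249), CON_PLX_LPS (299 ± 98.8), CON_CON_LPS (253 ± 99.3) and MIA_PLX_LPS (246 ± 98.8). Neighbours in this order differed by less than the larger of their SDs, except at the step between the saline and the LPS groups. MIA_CON_LPS includes the doubted replicate 6 (714 CPM), and by median it was the lowest of the LPS groups, at 219 CPM.

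Sall3, the relative of Sall1, changed little. Over all libraries it had 53.4, 116 and 211 CPM after LPS (lowest, median, highest), against 87.9, 142 and 214 CPM after saline, and the groups overlapped in every arm. Its log2 change was -0.21 in MIA:PLX, -0.32 in CON:PLX, -0.47 in MIA:CON and -0.41 in CON:CON, none of which was called. The average over arms of -0.35 ± 0.144 passed narrowly (adjusted p = 0.037 by edgeR) and did not pass in 12 of 37 fits that left out 1 library (adjusted p of 0.0502 to 0.0775). It did not pass without the 3 doubted LPS libraries either (-0.31, adjusted p = 0.0828). Nor did it pass by limma voom (adjusted p = 0.0792). By edgeR it also failed with no filter (adjusted p = 0.0769) and with replicate numbers added to the model (adjusted p = 0.0576). By mean its groups ran from CON_CON_SAL (184 ± 23.9 CPM, SD) and MIA_CON_SAL (168 ± 35.9) through CON_CON_LPS (139 ± 63.2), MIA_PLX_SAL (139 ± 29.3), MIA_CON_LPS (121 ± 36.4), MIA_PLX_LPS (120 ± 50.5) and CON_PLX_SAL (117 ± 20.5) to CON_PLX_LPS (93.8 ± 28.0). No neighbours in that order differed beyond their SD.

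Mef2c, which restrains inflammatory responses of mouse microglia, fell in all 4 arms. It had 185, 273 and 333 CPM in MIA_PLX_LPS, against 717, 685 and 667 CPM in MIA_PLX_SAL. It had 167, 250.8 and 415 CPM in CON_PLX_LPS, against 644, 656, 661 and 677 CPM in CON_PLX_SAL. The saline libraries were tightly grouped, and all LPS libraries lay below them. In MIA_CON_LPS it had 216, 329 and 502 CPM, against 717, 578, 654 and 688 CPM in MIA_CON_SAL. In CON_CON_LPS it had 229, 405, 254 and 370 CPM, against 679, 687, 693 and 674 CPM in CON_CON_SAL. Again no libraries overlapped.

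The log2 change of Mef2c was -1.37 ± 0.214 (SE) in MIA:PLX (adjusted p = 1.3e-05), -1.32 ± 0.199 in CON:PLX (adjusted p = 4.1e-06), -0.95 ± 0.200 in MIA:CON (adjusted p = 0.00071) and -1.12 ± 0.224 in CON:CON (adjusted p = 0.00035), all by edgeR. Its saline groups ran from 689 ± 25.1 CPM (SD) in MIA_PLX_SAL through 683 ± 8.18 in CON_CON_SAL and 660 ± 13.8 in CON_PLX_SAL to 659 ± 59.9 in MIA_CON_SAL. Below them came MIA_CON_LPS at 342 ± 100, CON_CON_LPS at 315 ± 86.1, MIA_PLX_LPS at 266 ± 49.2 and CON_PLX_LPS at 264 ± 86.8. Apart from the step between saline and LPS groups, neighbours differed by no more than their SD, with 1 exception, since CON_CON_SAL exceeded CON_PLX_SAL by more than the SD of either.

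Mef2a, the broadly expressed relative of Mef2c, had a smaller decrease, called by edgeR as reported only in CON:PLX. There it had 617, 885 and 1127 CPM in CON_PLX_LPS, against 1338, 1315, 1333 and 1317 CPM in CON_PLX_SAL, with no overlap. The log2 change was -0.61 ± 0.143 (SE; adjusted p = 0.001 by edgeR). In the other arms the libraries overlapped and the changes of -0.25 in MIA:PLX, -0.37 in MIA:CON and -0.35 in CON:CON were not called. Without MIA_CON_LPS replicate 6 the change in MIA:CON was -0.42 and was called (adjusted p = 0.0252 by edgeR). With all libraries used it was called in MIA:CON by DESeq2 (adjusted p = 0.0165) and limma voom (adjusted p = 0.0158). In CON:CON it was called by DESeq2 (adjusted p = 0.0328). Mean levels ran from 1362 ± 104 CPM (SD) in MIA_CON_SAL, 1343 ± 103 in CON_CON_SAL, 1326 ± 11.8 in CON_PLX_SAL and 1290 ± 68.5 in MIA_PLX_SAL to 1084 ± 96.2 in MIA_PLX_LPS, 1058 ± 154 in CON_CON_LPS, 1055 ± 172 in MIA_CON_LPS and 866 ± 180 in CON_PLX_LPS. The step between the lowest saline and the highest LPS group exceeded both SDs, as did that between MIA_CON_LPS and CON_PLX_LPS, although libraries of those LPS groups overlapped.

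Maf fell on average, with a wide spread among LPS libraries. Over all libraries it had 93.0, 234 and 407 CPM after LPS, against 357, 405 and 432 CPM after saline. The LPS libraries inside the saline range were CON_CON_LPS replicate 4 at 407 CPM, MIA_CON_LPS replicate 6 at 389 CPM and, against other arms only, MIA_PLX_LPS replicate 4 at 371 CPM. The log2 change was -0.69 ± 0.327 (SE) in MIA:PLX, -0.74 ± 0.301 in CON:PLX, -0.94 ± 0.301 in MIA:CON and -0.83 ± 0.336 in CON:CON. As reported it was called in MIA:CON alone (adjusted p = 0.020 by edgeR), and not there without MIA_CON_LPS replicate 1 or 4 (-0.79 each, adjusted p of 0.0513 and 0.0537). Without the doubted MIA_CON_LPS replicate 6 the change there was -1.22 (adjusted p = 0.00159 by edgeR). With no filter it was not called there (-0.96, adjusted p = 0.0612 by edgeR). By limma voom the decrease was also called in MIA:PLX, CON:PLX and CON:CON (adjusted p of 0.00805, 0.000854 and 0.00202). By DESeq2 it was also called in CON:PLX and CON:CON (adjusted p of 0.0346 and 0.0367). Without CON_CON_LPS replicate 4 the change in CON:CON was -1.31 and was called (adjusted p = 0.0048 by edgeR). Without the 3 doubted libraries that in CON:PLX was -0.75 and was called (adjusted p = 0.0184 by edgeR), as it was without CON_PLX_LPS replicate 6 (-0.82, adjusted p = 0.0441). None of the 3 doubted libraries belongs to CON:PLX, but all groups share an estimate of the spread in the model. Mean levels were 413 ± 27.3, 397 ± 20.4, 395 ± 31.3 and 391 ± 20.1 CPM (SD) in MIA_PLX_SAL, MIA_CON_SAL, CON_CON_SAL and CON_PLX_SAL, then 257 ± 92.6, 233 ± 40.0, 221 ± 126 and 207 ± 114 CPM in MIA_PLX_LPS, CON_PLX_LPS, CON_CON_LPS and MIA_CON_LPS. Only the step between saline and LPS groups exceeded the SD of the neighbours.

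Spi1, which encodes PU.1, had a small increase. Over all libraries it had 66.9, 161 and 258 CPM after LPS, against 84.4, 116 and 150 CPM after saline, and the groups overlapped in every arm. The log2 change was 0.11 ± 0.240 (SE) in MIA:PLX, 0.59 ± 0.220 in CON:PLX, 0.55 ± 0.221 in MIA:CON and 0.49 ± 0.239 in CON:CON. Only that in CON:PLX was called (adjusted p = 0.039 by edgeR), and it was lost in 7 of the 10 fits that left out 1 of its libraries (adjusted p of 0.0519 to 0.102). These were the fits without CON_PLX_LPS replicate 1, 2 or 5 or any 1 CON_PLX_SAL library. Without MIA_CON_LPS replicate 6 the change in MIA:CON was 0.63 (adjusted p = 0.0323), and without CON_CON_LPS replicate 4 that in CON:CON was 0.64 (adjusted p = 0.0497 by edgeR). Mean levels ran from 175 ± 46.8 CPM (SD) in MIA_CON_LPS, 171 ± 38.1 in CON_PLX_LPS, 152 ± 39.6 in CON_CON_LPS and 147 ± 42.7 in MIA_PLX_LPS to 137 ± 18.8 in MIA_PLX_SAL, 120 ± 18.0 in MIA_CON_SAL, 114 ± 8.72 in CON_PLX_SAL and 108 ± 23.7 in CON_CON_SAL. No neighbours in that order differed beyond the larger of their SDs.

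Runx1, the runt domain factor, was the member with the clearest increase. It had 659, 714 and 1221 CPM in MIA_PLX_LPS, against 479, 479 and 439 CPM in MIA_PLX_SAL. It had 541, 670 and 782 CPM in CON_PLX_LPS, against 460, 447, 489 and 490 CPM in CON_PLX_SAL. All LPS libraries lay above all saline libraries of these arms, by a narrow margin in CON:PLX. In MIA_CON_LPS it had 570, 791 and 1139 CPM, against 463, 401, 426 and 431 CPM in MIA_CON_SAL. In CON_CON_LPS it had 895, 736, 679 and 604 CPM, against 427, 468, 451 and 424 CPM in CON_CON_SAL. The groups did not overlap here either.

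The log2 change of Runx1 was 0.76 ± 0.195 (SE) in MIA:PLX (adjusted p = 0.0039), 0.49 ± 0.174 in CON:PLX (adjusted p = 0.029), 0.92 ± 0.177 in MIA:CON (adjusted p = 0.00025) and 0.72 ± 0.189 in CON:CON (adjusted p = 0.0049), all by edgeR. The call in CON:PLX was lost without CON_PLX_LPS replicate 4 or any 1 CON_PLX_SAL library (0.44 to 0.51, adjusted p of 0.0509 to 0.0846). Mean levels ran from 816 ± 230 CPM (SD) in MIA_CON_LPS, 791 ± 213 in MIA_PLX_LPS, 729 ± 123 in CON_CON_LPS and 661 ± 90.7 in CON_PLX_LPS to 471 ± 21.3 in CON_PLX_SAL, 466 ± 22.8 in MIA_PLX_SAL, 442 ± 21.1 in CON_CON_SAL and 430 ± 25.6 in MIA_CON_SAL. The step between LPS and saline groups exceeded both SDs, that between MIA_PLX_SAL and CON_CON_SAL exceeded them narrowly, and the other neighbours differed by less than the larger SD.

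By arm, 3 members were called in MIA:PLX, where 22.3% of all tested genes were called, 5 in CON:PLX (31.5%), 4 in MIA:CON (25.4%) and 3 in CON:CON (23.6%). In MIA:PLX 1 rose and 2 fell (11.8% of all genes rose and 10.4% fell), and in CON:PLX 2 rose and 3 fell (17.5% and 14%). In MIA:CON 1 rose and 3 fell (14.5% and 10.9%), and in CON:CON 1 rose and 2 fell (13.7% and 9.84%). The members whose LPS and saline libraries did not overlap numbered 4 in MIA:PLX (25.4% of all tested genes), 5 in CON:PLX (27.8%), 3 in MIA:CON (17.4%) and 3 in CON:CON (24.6%). Sall1, Mef2c and Runx1 were among them in every arm, Maf in both PLX arms and Mef2a in CON:PLX. The members' median log2 change was -0.25 in MIA:PLX, -0.61 in CON:PLX, -0.47 in MIA:CON and -0.41 in CON:CON, while the median of all tested genes was 0.03 to 0.06. The count in CON:PLX was 3 without any 1 of the CON_PLX_SAL libraries. The count in CON:CON was 5 without CON_CON_LPS replicate 4, and that in MIA:CON was 6 without MIA_CON_LPS replicate 6. Without the 3 doubted libraries together 3 members were called in MIA:PLX, 6 in CON:PLX, 6 in MIA:CON and 5 in CON:CON. None of these libraries belongs to CON:PLX, but all groups share an estimate of the spread in the model.

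**Figure D2:**
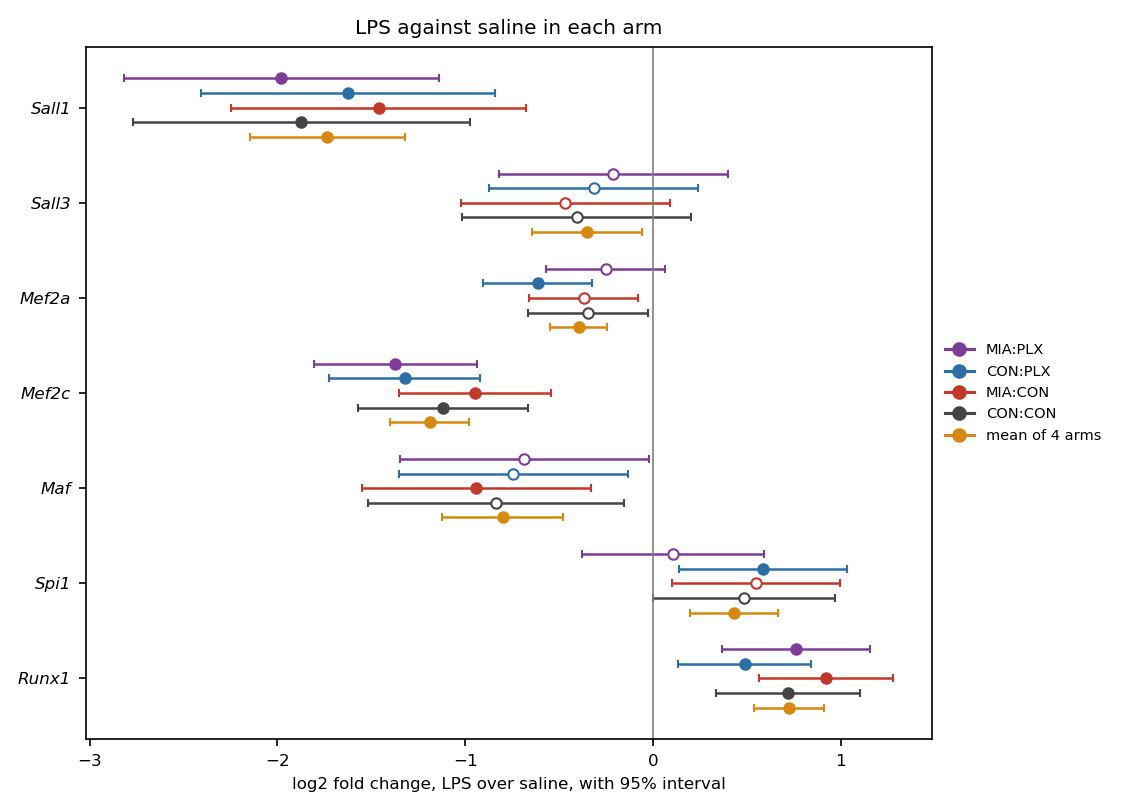
Log2 fold change of each gene, LPS over saline, in each arm and averaged over the 4 arms, with 95% intervals. Filled points were called at an adjusted p under 0.05 by edgeR and open points were not. Sall1 lies between -1.98 and -1.46 and Runx1 between 0.49 and 0.92 in the 4 arms.

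Markers of other cells moved with the same comparison. The summed level of 7 monocyte genes was 25.2, 150 and 642 CPM after LPS (lowest, median, highest), against 4.39, 10.6 and 21.4 CPM after saline. Of the 6 tested 5 rose and Ccr2 fell averaged over arms, where 30.3% of all tested genes rose and 26% fell. Fn1, which encodes fibronectin, made up most of this sum, at a mean of 154 CPM after LPS against 1.78 CPM after saline, and the defining gene Ly6c2 was at 0 in 6 of 22 LPS and 14 of 15 saline libraries. The sum of 8 neutrophil genes was 3.12, 41.4 and 144 CPM after LPS, against 0, 0.439 and 98.5 CPM after saline. The 6 tested all rose averaged over arms (30.3% of all tested genes). By arm, 2 rose in MIA:PLX (11.8% of all tested genes), 1 in CON:PLX (17.5%), 5 in MIA:CON (14.5%) and 3 in CON:CON (13.7%). Ly6g was at 0 in 18 of 22 LPS and 14 of 15 saline libraries. Border-associated macrophage genes summed to 7.70, 46.3 and 219 CPM after LPS, against 29.9, 53.2 and 99.0 CPM after saline. Of these, 2 of 6 tested were higher averaged over arms, near the share of all tested genes (30.3%). By arm, 1 was higher in CON:PLX (17.5% of all tested genes), 1 in CON:CON (13.7%) and 0 in either MIA arm. Lymphocyte genes summed to at most 1.54 CPM after LPS and 1.99 CPM after saline. Median sums after LPS and saline were 27.8 and 24.7 CPM for neuron genes, 191 and 235 CPM for astrocyte genes, 58.1 and 53.1 CPM for oligodendrocyte lineage genes and 17.8 and 39.05 CPM for endothelial and mural genes. Their part in the members' changes was not tested.

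The gene that marks the sort gate also moved. P2ry12 had 374 ± 323 CPM (SD, n = 22) after LPS, against 2576 ± 234 CPM (SD, n = 15) after saline, a log2 change of -2.90 ± 0.174 (SE; adjusted p = 6.7e-16 by edgeR). Itgam, which encodes CD11b, had a change of -0.03 ± 0.123 and Ptprc, which encodes CD45, one of 0.07 ± 0.0949, and neither was called.

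Related members were compared within each library, where a ratio does not depend on how libraries are scaled. The log2 ratio of Sall3 over Sall1 was -0.999 ± 0.662 (SD, n = 6) in MIA_PLX_LPS, against -2.82 ± 0.325 (SD, n = 3) in MIA_PLX_SAL, a difference of 1.83 (exact permutation test, two-sided, adjusted p = 0.023 over the 8 ratio tests). The difference was 1.35 in CON:PLX (adjusted p = 0.019), 1.34 in MIA:CON (adjusted p = 0.038) and 1.47 in CON:CON (adjusted p = 0.033), by the same exact test. Sall1 thus fell relative to Sall3 in each arm. LPS and saline libraries overlapped in MIA:CON alone, through the doubted MIA_CON_LPS replicate 6. The log2 ratio of Mef2c over Mef2a was -2.04 ± 0.193 (SD, n = 6) in MIA_PLX_LPS, against -0.903 ± 0.0815 (SD, n = 3) in MIA_PLX_SAL, a difference of -1.14 (exact permutation test, adjusted p = 0.023). It differed by -0.74 in CON:PLX (adjusted p = 0.019), -0.61 in MIA:CON (adjusted p = 0.023) and -0.81 in CON:CON (adjusted p = 0.033), by the same exact test, with no overlap in any arm. The Sall3 over Sall1 difference in MIA:CON (1.12 to 1.63 with 1 library left out) missed the threshold without MIA_CON_LPS replicate 1, 2 or 5 or any 1 MIA_CON_SAL library. The Mef2c over Mef2a difference in CON:CON (-0.96 to -0.68) missed it without any 1 CON_CON_SAL library. The smallest unadjusted p these tests can reach is 0.0119 in MIA:PLX, 0.0048 in CON:PLX and MIA:CON and 0.029 in CON:CON.

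**Figure D3:**
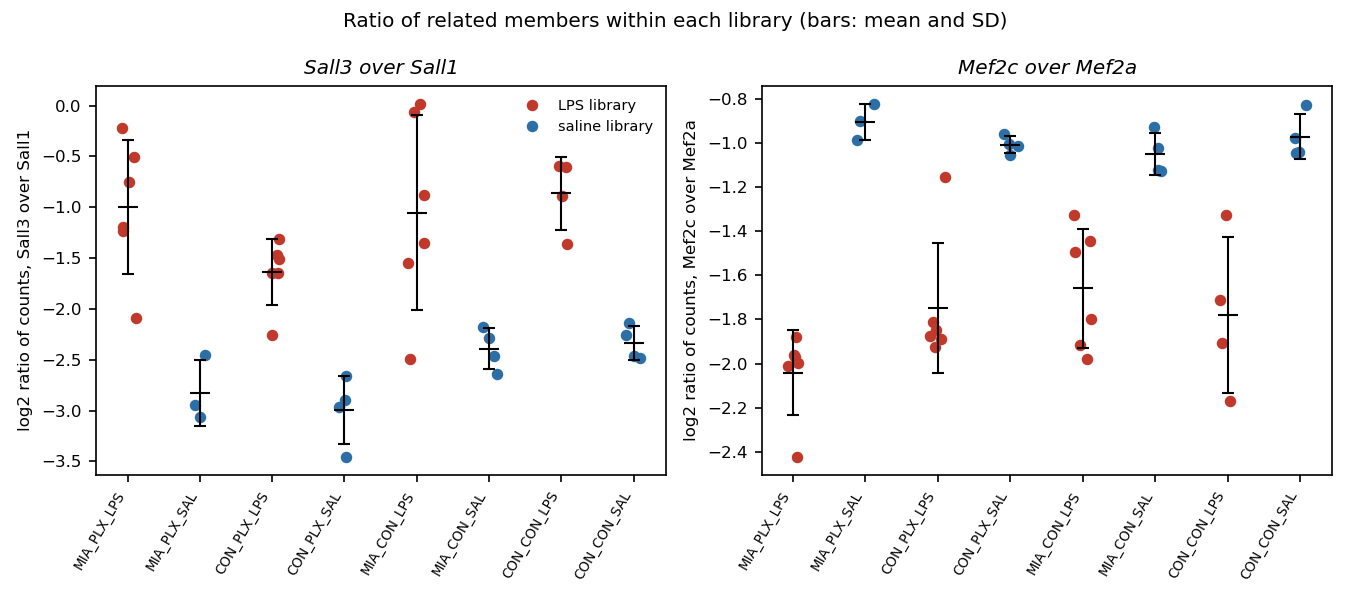
Log2 ratio of estimated counts (0.5 added) of Sall3 over Sall1 and of Mef2c over Mef2a in every library, by group, with bars for the mean and SD. For Sall3 over Sall1, LPS libraries lie above the saline libraries of their own arm, apart from the doubted MIA_CON_LPS replicate 6 at -2.50. For Mef2c over Mef2a they lie below them.

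Levels of different genes can be compared only roughly per length, since a count per gene does not show the length of the transcripts expressed. Per kilobase of all exons annotated in GENCODE M21, the median after LPS was 70.9 CPM for Mef2a, 59.6 for Spi1, 58.6 for Runx1, 55.8 for Sall1, 28.3 for Maf, 17.8 for Mef2c and 15.4 for Sall3. After saline it was 90.4 CPM per kilobase for Mef2a, 43.2 for Spi1, 37.5 for Runx1, 179.8 for Sall1, 49.2 for Maf, 43.1 for Mef2c and 19.0 for Sall3. Sall1 thus had the highest value after saline and Mef2a after LPS on this scale. By CPM without length, Mef2a was above Sall1 after saline as well, at a median of 1328 CPM against 947 CPM. Exons of Mef2a, Maf and Runx1 overlap genes on the opposite strand (Lysmd4, Gm15655 and Gm26626), which a library without strand information cannot separate. Those genes held at most 39.3, 41.4 and 16 estimated counts in any library.

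The spread between libraries of a group was larger after LPS for every member. The SD of log2 CPM within groups was 0.846 after LPS and 0.103 after saline for Sall1, and 0.653 and 0.0915 for Maf. The LPS values include the doubted MIA_CON_LPS replicate 6 (714 CPM of Sall1 and 389 CPM of Maf). They also include CON_CON_LPS replicate 4 (407 CPM of Maf), and SDs without these libraries were not computed. It was 0.396 after LPS and 0.0759 after saline for Mef2c, 0.311 and 0.0732 for Runx1, 0.239 and 0.0884 for Mef2a, 0.546 and 0.264 for Sall3, and 0.422 and 0.223 for Spi1. The LPS value was 8.25 times the saline value for Sall1, 7.14 times for Maf and 1.89 times for Spi1. Over the 6425 genes with an average log2 CPM of at least 4, the median was 0.396 after LPS and 0.179 after saline, with a median ratio of 2.19, and the ratios of Sall3 (2.065) and Spi1 lay below it. Of those genes 5.53% had a larger SD after LPS than Sall1, 13.4% than Maf, 22.5% than Sall3, 44.4% than Spi1, 49.9% than Mef2c, 72.5% than Runx1 and 90.3% than Mef2a.

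MIA and PLX did not change any member detectably. In 56 tests of MIA against CON or PLX against no PLX (7 genes, 8 comparisons), edgeR called 0 members, as did DESeq2 and limma voom, with 3 at an unadjusted p under 0.05. Over all tested genes 0.0149% were called for MIA with PLX after LPS, 0.00745% for PLX in CON after LPS and 0% in the other 6. At an unadjusted p under 0.05 the comparisons held 125 to 1252 genes, and DESeq2 called 0 to 25. Member log2 changes lay between -0.66 and 0.35 and their 95% intervals between -1.27 and 1.13, with the widest intervals for Sall1. These comparisons share libraries with each other and with the LPS comparisons.

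The largest of these values belonged to Sall3. It had 87.9, 136, 124 and 119 CPM in CON_PLX_SAL, against 200.3, 206, 154 and 177 CPM in CON_CON_SAL, without overlap, as in 3.03% of all tested genes. The log2 change was -0.66 (95% interval -1.27 to -0.04), with an unadjusted p of 0.037 and an adjusted p of 1 by edgeR. After LPS it had 53.4, 89.6 and 136 CPM in CON_PLX_LPS (lowest, median, highest), against 72.3, 171, 102 and 211 CPM in CON_CON_LPS, a log2 change of -0.57 (adjusted p = 0.70 by edgeR) with overlap. For PLX in MIA mice the changes were -0.28 after saline and -0.02 after LPS. Mef2a had a log2 change of 0.32 for MIA with PLX after LPS (unadjusted p = 0.017, adjusted p = 0.49 by edgeR), at 1084 ± 96.2 CPM (SD, n = 6) in MIA_PLX_LPS against 866 ± 180 CPM (SD, n = 6) in CON_PLX_LPS. For Sall1 the change for MIA was -0.28 with PLX (95% interval -0.99 to 0.44) and 0.32 without PLX (-0.48 to 1.13) after LPS. The change without PLX includes the doubted MIA_CON_LPS replicate 6, which had the highest Sall1 of the LPS libraries (714 CPM).

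The LPS response itself was compared between arms by interaction terms, 4 for each member. Of these 28 tests by edgeR, 0 were called and 0 had an unadjusted p under 0.05, and 0% of all tested genes were called in each of the 4 comparisons, with 356 to 415 genes at an unadjusted p under 0.05. DESeq2 also called 0 genes in each. The differences in log2 response lay between -0.52 and 0.41, with 95% intervals between -1.69 and 1.59. For Sall1 the response differed by -0.36 between MIA:PLX and CON:PLX (95% interval -1.53 to 0.82) and by 0.41 between MIA:CON and CON:CON (-0.77 to 1.59). Without the 3 doubted LPS libraries together, the log2 change of Sall1 was -1.89 in MIA:CON and -1.89 in CON:CON. In that fit it was -2.13 in MIA:PLX and -1.63 in CON:PLX.

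**Figure D4:**
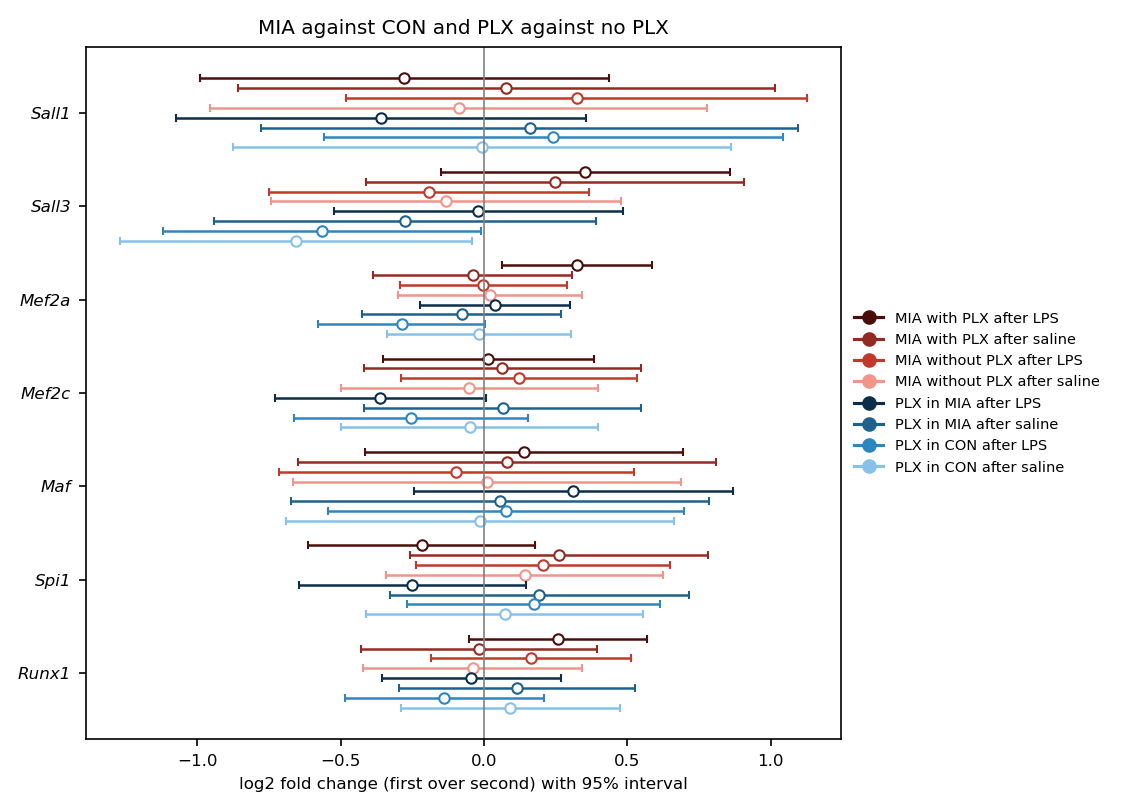
Log2 fold change of each gene for MIA over CON, with and without PLX, and for PLX over no PLX, in MIA and in CON, after LPS and after saline, with 95% intervals. All points are open because none was called by edgeR, and they lie between -0.66 and 0.35.

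Of 14 relatives of the members, 9 were tested, and averaged over arms LPS raised 4 and lowered 3, where 30.3% of all tested genes rose and 26% fell. The median log2 change was 0.20. Among them Sall2, a zinc finger relative of Sall1, had 7.82 ± 2.82 CPM (SD, n = 22) after LPS against 20.2 ± 2.93 CPM (SD, n = 15) after saline, a log2 change of -1.34 ± 0.146 (SE; adjusted p = 1.1e-09 by edgeR). Genes of the small Maf proteins, which lack a transactivation domain, rose averaged over arms. Maff rose by 1.55 ± 0.231, Mafk by 1.15 ± 0.199 and Mafg by 0.39 ± 0.0703 on the log2 scale. By arm, edgeR called Maff in every arm, Mafk only in MIA:PLX and MIA:CON, and Mafg only in MIA:PLX and CON:PLX. Cbfb, the partner of Runx1, named here after its values were seen, had a change of 0.20 and was not called (adjusted p = 0.10 by edgeR).

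Of 22 other transcription factor genes of microglia and macrophages, 20 were tested, and 5 rose and 11 fell averaged over arms (30.3% and 26% of all tested genes), with a median log2 change of -0.34. Id2, which encodes an inhibitor of basic helix-loop-helix factors, had 127 ± 77.0 CPM (SD, n = 22) after LPS against 13.3 ± 3.90 CPM (SD, n = 15) after saline, a log2 change of 3.26 ± 0.270 (SE). Klf4, a Kruppel-like factor, rose by 1.84 ± 0.200. Smad3, which carries transforming growth factor beta signals, had 42.15 ± 17.04 CPM after LPS against 92.6 ± 7.04 CPM after saline and fell by 1.13 ± 0.148, and Tcf4 fell by 0.54 ± 0.0606, on the log2 scale. The adjusted p of these 4 was at most 5.3e-08 by edgeR. Klf2 had a change of 0.15 ± 0.345 and was not called. By arm, 3 rose and 6 fell in MIA:PLX (11.8% and 10.4% of all tested genes), and 3 rose and 9 fell in CON:PLX (17.5% and 14%). In MIA:CON 2 rose and 6 fell (14.5% and 10.9%), and in CON:CON 3 rose and 5 fell (13.7% and 9.84%).

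All 15 homeostatic microglia genes on the list fell averaged over arms, as did 26% of all tested genes, with a median log2 change of -1.48. By arm 14 fell in MIA:PLX (10.4% of all tested genes), 12 in CON:PLX (14%), 11 in MIA:CON (10.9%) and 12 in CON:CON (9.84%), and 0 rose. Siglech, a sialic acid receptor of microglia, had 273 ± 125 CPM (SD, n = 22) after LPS against 993 ± 77.4 CPM (SD, n = 15) after saline, a log2 change of -1.91 ± 0.124 (SE; adjusted p = 3.6e-15 by edgeR). The transforming growth factor beta receptor gene Tgfbr1 had 930 ± 243 CPM after LPS against 2199 ± 191 CPM after saline (-1.24 ± 0.105), and Golm1 fell by 1.25 ± 0.102. Sparc, a secreted matrix protein gene, had the smallest change by p (-0.29 ± 0.0821, adjusted p = 0.0028 by edgeR). The decreases of Sall1 (-1.73) and Mef2c (-1.19) on the same scale lie within the range of this list, that of Mef2a (-0.39) near its low end.

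For each member, tested genes with the most similar pattern over the 8 group means were named, by the root mean square difference of centred log2 CPM. For Sall1 these were Nav1 (0.0481) and the fractalkine receptor gene Cx3cr1 (0.0620), against a size of the Sall1 pattern itself of 0.961. For Mef2c they were Tmem64 (0.0566), Lims1 (0.0592) and B4galt4 (0.065), for Maf Myadm (0.0565), Krba1 (0.0607) and Rap2a (0.0741), and for Mef2a Ubl3 (0.0396), Nek7 (0.0426) and Zmym2 (0.045). For Runx1 they were the inflammasome protease gene Casp1 (0.0382), Ccnl2 (0.0419) and Ist1 (0.0561), and for Spi1 Szrd1 (0.0432), the beta-actin gene Actb (0.061) and Pom121 (0.061). For Sall3 the nearest were Rgl1 (0.142), Magi1 (0.149) and Myh10 (0.156), less close relative to the size of its own pattern (0.304).

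The plot of Runx1 and Mef2c against Sall1 shows how LPS libraries were spread. The LPS library with the lowest Sall1, MIA_PLX_LPS replicate 5 at 85.9 CPM, had the highest Runx1 at 1221 CPM and Maf at 93.2 CPM. The library with the highest Sall1 after LPS was MIA_CON_LPS replicate 6 at 714 CPM, the doubted library close to an excluded one labelled saline. It had 502 CPM of Mef2c, the highest of the LPS libraries, and 570 CPM of Runx1.

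**Figure D5:**
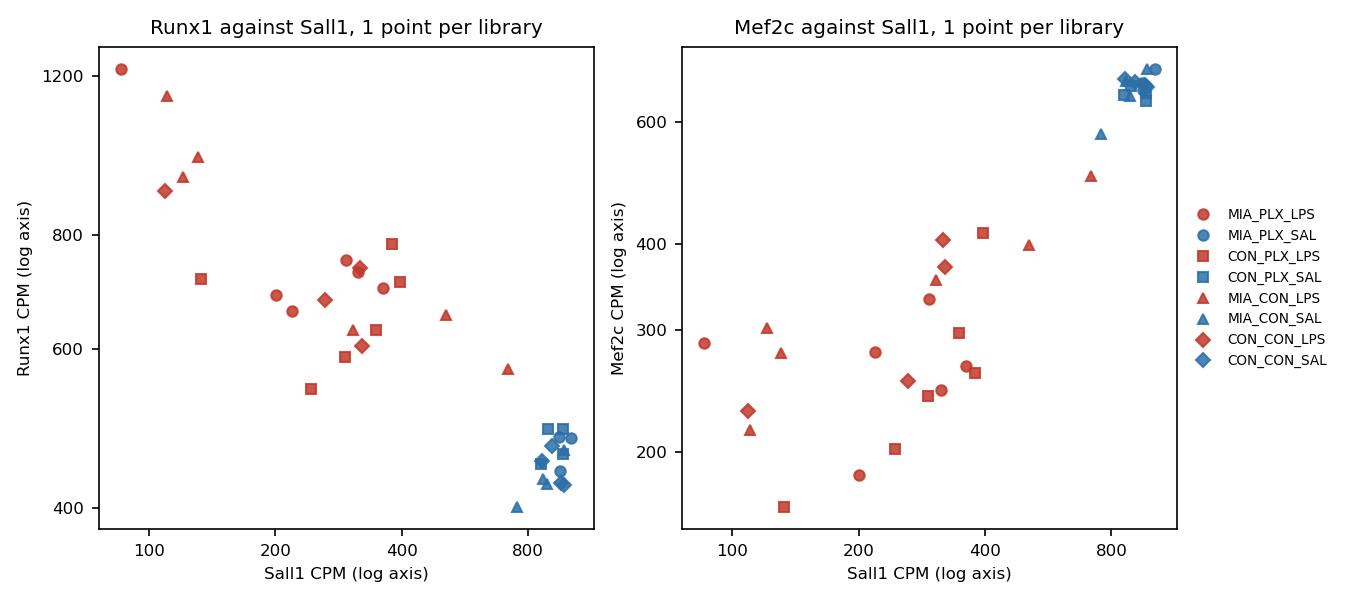
Runx1 and Mef2c against Sall1, in CPM on log axes, with 1 point per library, LPS groups in red and saline groups in blue. The saline libraries form a tight cluster at 754 to 1013 CPM of Sall1, and the LPS libraries spread from 85.9 to 714 CPM with Runx1 higher and Mef2c lower than in any saline library. The LPS library at 714 CPM is the doubted MIA_CON_LPS replicate 6.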

How the data were processed

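RNA-seq was made from 39 libraries of sorted striatal microglia, with linear amplification that keeps no strand information, per the labels' protocols. The authors deposited 1 table of estimated counts per gene, of which 14.71% of the nonzero values are not whole. Per the submitters' processing notes the tools were STAR, RSEM and DESeq2, with no version or role, and neither genome build nor annotation is given in the sources used here. Gene names came from GENCODE M21, which matched 55141 of 55487 identifiers, 54349 of them with the version, and unmatched ones held 0.013% of the counts. The 2 libraries titled as excluded were left out, which left 22 LPS and 15 saline libraries.

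Counts were rounded and genes filtered with filterByExpr (minimum count 10, minimum total 15), which kept 13420 genes. They were tested with edgeR 4.0.16 in R 4.3.3, with TMM scaling and robust quasi-likelihood F tests (common dispersion 0.0972), in 1 model with a mean for each of the 8 groups, with two-sided p-values adjusted by Benjamini-Hochberg over all tested genes and called at 0.05. CPM values are counts scaled by TMM to a common total, and intervals are 95%. The script was tested on simulated data. Ratios within a library used exact permutation tests. Alternatives were DESeq2 1.42.0, limma 3.58.1 voom with quality weights, other size factors, filters, offsets and samples, a replicate block, and each library left out in turn.

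Named genes were the 7 members, up to 4 genes with the smallest p and the 1 with the largest p for the average LPS effect in each of 3 lists, the gate genes, and 3 genes most like each member; 2 genes that this rule names are not reported here. Members and lists were chosen with earlier results of these data known. Replicate numbers are shared between groups, but deviations of same-numbered libraries correlated at -0.072 to 0.143 over 14 pairs, so the numbers were not taken as pairs. Promoter windows came from a RefSeq table in which 4 of the 7 members were matched; those of Spi1, Maf and Sall3 were not used here.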

Additional observations from a re-analysis of the deposited data

Results flagged for a closer look

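Runx1 in MIA_PLX_LPS replicate 5 stood at 1221 CPM (1220.51), while the other 5 libraries of the group lay between 659 and 752 CPM. The gap to the nearest library was 0.835 of the range of the group, past the 95% critical value of Dixon's test. The test was applied to 49 combinations of gene and group and singled out this 1, and chance singles out about 1 in 20. The same library had the lowest Sall1 of all LPS libraries (85.9 CPM) and 93.2 CPM of Maf.

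Both libraries titled as excluded had Runx1 above the saline libraries when all 39 libraries were scaled together. CON_CON_LPS replicate 3 had 492 CPM (492.236) and MIA_PLX_SAL replicate 1, which is labelled saline, had 577 CPM (577.305), against 399 to 488 CPM in the 15 saline libraries.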

How the results depend on the processing

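No called LPS change of a member changed direction in the 37 fits with 1 library left out or under the other alternatives. Of the LPS values of single members under alternatives other than leaving out 1 library, 278 stayed on their side of the threshold, 21 gained a call and 9 lost one. For MIA, PLX and their interactions with LPS, 0 members were called in any of 268 combinations of comparison and setting, the reported fits included, and 44 of their uncalled log2 changes changed sign under alternatives other than leaving out 1 library, while 712 did not. The number of members called in CON:CON was 5 with DESeq2, and 5 with the 3 doubted LPS libraries left out together, an alternative chosen after seeing the data, against 3 as reported. In CON:PLX it was 3 with no filter, against 5. With 1 library left out it ranged from 3 to 3 in MIA:PLX, 3 to 6 in CON:PLX, 3 to 6 in MIA:CON, 3 to 5 in CON:CON and 6 to 7 in the average. Without 1 library the Sall3 over Sall1 difference in MIA:CON ranged from 1.12 to 1.63 and missed the threshold in 7 of 10 fits, and the Mef2c over Mef2a difference in CON:CON ranged from -0.96 to -0.68 and missed it in 4 of 8.

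With the replicate block, no ratio can pass, because too few numbers are shared (adjusted p = 0.25 by the exact sign-flip test). The Sall3 over Sall1 differences under the replicate block were 1.32 in MIA:PLX, 1.32 in CON:PLX, 1.45 in MIA:CON and 1.34 in CON:CON, and those of Mef2c over Mef2a were -1.23 in MIA:PLX, -0.68 in CON:PLX, -0.61 in MIA:CON and -0.85 in CON:CON.

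Over all tested genes, voom called 4596 genes against 2990 in MIA:PLX and 6432 against 4228 in CON:PLX, and a fit of the compared groups alone called 2228 against 3403 in MIA:CON. For MIA with PLX DESeq2 called 14 genes after LPS against 2, and the fit of the compared groups alone called 136 after saline against 0. For PLX in MIA after LPS DESeq2 called 25 against 0. The cause was not tested. The undefined arm term and unstated origin of replicates limit every comparison.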

Other observations

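Relations between members among the 22 LPS libraries were computed after seeing the data, with group means removed, and p-values come from 100000 permutations within groups, adjusted over 28 relations. Sall1 and Mef2c were higher in the same libraries (Pearson r = 0.691, adjusted permutation p = 0.0071; Spearman rho = 0.696, adjusted permutation p = 0.013). Without the 2 libraries farthest in Sall1 r was 0.755. Within the groups of 6 libraries it was 0.0012 in MIA_PLX_LPS, 0.862 in CON_PLX_LPS and 0.934 in MIA_CON_LPS, so the relation did not hold in each group. Maf and Runx1 went opposite ways (r = -0.812, adjusted permutation p = 0.0071; rho = -0.753, adjusted permutation p = 0.013), with r = -0.695 without the 2 farthest libraries. Within groups r was -0.969 in MIA_PLX_LPS, -0.264 in CON_PLX_LPS and -0.919 in MIA_CON_LPS. Sall1 and Runx1 had r = -0.773 (adjusted permutation p = 0.0071) and rho = -0.566 (adjusted permutation p = 0.067), with r = -0.670 without the 2 farthest libraries. Within groups r was -0.835 in MIA_PLX_LPS, 0.101 in CON_PLX_LPS and -0.945 in MIA_CON_LPS. Other pairs were related as well. Mef2a with Mef2c had r = 0.731 and rho = 0.65 (adjusted permutation p of 0.0071 and 0.032). Sall1 with Maf had r = 0.728 and rho = 0.502 (adjusted permutation p of 0.0081 and 0.10). Sall3 had r = 0.674 with Mef2a, 0.638 with Sall1 and 0.632 with Mef2c. Relations were weaker for Mef2c with Runx1 (r = -0.333) and with Spi1 (r = -0.0591). The summed monocyte genes had r = 0.582 with Sall3 (adjusted permutation p = 0.026; rho = 0.443, adjusted permutation p = 0.12), with r = 0.43 without the 2 libraries farthest in Sall3. They had r = -0.516 with Runx1 (adjusted permutation p = 0.041; rho = -0.569, adjusted permutation p = 0.062) and r = -0.487 without the 2 farthest. With Sall1 r was 0.425 (adjusted permutation p = 0.12; rho = 0.315, adjusted permutation p = 0.29), and the other 4 members lay between r = -0.146 and r = 0.325. Without the doubted MIA_CON_LPS replicate 6, r with the monocyte genes was 0.581 for Sall1, 0.604 for Sall3 and -0.641 for Runx1. It was then 0.633 for Sall1 with Mef2c, -0.78 for Maf with Runx1 and -0.732 for Sall1 with Runx1.

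For Sall1, Mef2c and Runx1, the LPS libraries with chemokine sums inside the saline range had levels within those of the other LPS libraries. CON_CON_LPS replicate 4 had 262 CPM of Sall1, 254 CPM of Mef2c and 679 CPM of Runx1, and MIA_PLX_LPS replicate 2 had 361 CPM of Sall1, 267 CPM of Mef2c and 699 CPM of Runx1. Each value lies within the range of the other LPS libraries. Each also lies outside that of the saline libraries, as every LPS library does for these genes. Maf differed, since CON_CON_LPS replicate 4 had 407 CPM, inside the saline range and the highest of all LPS libraries.

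The libraries titled as excluded entered no comparison. CON_CON_LPS replicate 3 had 684 CPM of Sall1, 641 CPM of Mef2c and 381 CPM of Maf. MIA_PLX_SAL replicate 1 had 794 CPM of Sall1, 517 CPM of Mef2c and 374 CPM of Maf, while MIA_CON_LPS replicate 6, the library it resembles, had 712, 500 and 388 CPM on the same scale.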
